A study of Homo sapiens with 4 samples.

Results

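HepG2 cells treated with GSK343 were set against HepG2 control cells, gene by gene and then pathway by pathway. HepG2 is a human liver cancer cell line that keeps many hepatocyte features, and GSK343 is a small molecule inhibitor of EZH2. The HepG2 GSK343 cells received 10 μM GSK343 and the HepG2 control cells carried the agent label Control, and both were cultured for 6 h in serum-containing medium before total RNA was taken. The labels do not name a vehicle for the control. These are 2 of the 4 arrays of the study, and the remaining 2 are the same treatment and control in A549, a human lung adenocarcinoma line. All 4 are single-colour Cy5 arrays with 31741 probes each. The comparison covered the 31634 probes that were above 0 on both HepG2 arrays and the 18322 genes with at least 1 probe that names them alone. There was 1 array for each condition, so every difference is given as a size, with no test and no error between cultures.

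EZH2 is the catalytic subunit of Polycomb repressive complex 2 (PRC2), which methylates histone H3 at lysine 27 and keeps developmental genes silent. Liver cells are a main site of cholesterol and fatty acid synthesis, and the genes of both routes share the sterol regulatory element-binding proteins SREBP-1 and SREBP-2, which leave the endoplasmic reticulum (ER) membrane and enter the nucleus when sterols run low. The same cells secrete large amounts of protein and rely on ER chaperones, and their growth genes answer to serum, MAPK, YAP, TGF-β and WNT signals. These gene groups are described below, beside the genes that 2 or more probes agreed on.

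LPIN1 and ACSS2, both enzymes of lipid metabolism, stood at the top of the genes whose probes agreed, each more than 2-fold higher with GSK343 on both of their probes. A gene was counted here when it had 2 or more single-gene probes at or above the 25th percentile of intensity, all of one direction, and the smallest of the differences was at least 1.5-fold. Of 3843 genes with enough probes, 4 were higher in this sense (0.104%) and 14 were lower (0.364%). Over all single probes, 2.75% were at least 1.5-fold higher and 7.0% at least 1.5-fold lower. How many genes would be counted if their probes were unrelated was not tested. LPIN1, the phosphatidate phosphatase that supplies diacylglycerol for triglyceride and phospholipid synthesis, had intensities of 6171 with GSK343 and 2507 in the control on one probe, and 5032 with GSK343 and 2054 in the control on the other. The log2 differences (GSK343 minus control) were 1.30 and 1.29. ACSS2, which makes acetyl-CoA from acetate in the cytosol and nucleus, had 9188 with GSK343 and 4151 in the control on one probe, and 11895 with GSK343 and 5389.8 in the control on the other, with differences of 1.15 and 1.14. These genes were selected for agreement between their probes, so that the agreement is a description.

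ACSS2 is shown here with the stretch of its promoter that holds a CCAAT box, the site of nuclear factor Y, which acts with SREBP at many lipid genes. The stretch lies at chr20:34874842-34874894 on the plus strand (RefSeq, GRCh38.p14) and ends 95 bases before the start site, and the capitals mark CCAAT read on the opposite strand (ATTGG).
ACSS2: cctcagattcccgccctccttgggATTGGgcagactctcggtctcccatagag

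VASH2 and FAM163B were the other genes higher on every probe. VASH2, a vasohibin that removes the terminal tyrosine of tubulin, had 1819.8 with GSK343 and 1065 in the control on the brighter probe and 620.4 with GSK343 and 378.6 in the control on the dimmer one, with differences of 0.77 and 0.71. FAM163B had 416.7 with GSK343 and 219.6 in the control on one probe and 283.3 with GSK343 and 171.5 in the control on the other, all under the median intensity of either array. At a lower size of 1.25-fold, which was chosen after the values were seen, the counts were 37 genes higher and 90 lower. The 37 include MSMO1, IDI1 and SC5DL, enzymes of sterol synthesis, and also LPIN1 and ACSS2, which were counted already at 1.5-fold. Genes outside lipid synthesis, such as KLHL24, FLT4, MAP1B and CXCR3, are among them as well. The share of lipid enzymes among all 3843 genes was not taken.

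MDN1 and GAR1 were among the 14 lower genes. MDN1, the AAA ATPase that remodels the large ribosomal subunit before export, had 854.1 with GSK343 and 1655 in the control on one probe and 487.0 with GSK343 and 869.0 in the control on the other, with differences of -0.95 and -0.84. GAR1, a protein of the H/ACA particles that guide pseudouridylation, had 544.9 with GSK343 and 1217 in the control, and 422.9 with GSK343 and 678.7 in the control, with differences of -1.16 and -0.68. In A549 every MDN1 and GAR1 probe was instead above 0, with differences of 1.34 and 0.84 for MDN1 and of 0.89 and 0.48 for GAR1.

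FGD4, GAB1 and SLC2A3 were also among the 14. FGD4, an exchange factor for CDC42, had 371.2 with GSK343 and 740.4 in the control on one probe and 255.4 with GSK343 and 526.0 in the control on the other, with differences of -0.996 and -1.04. GAB1, an adaptor below receptor tyrosine kinases such as MET, had 4249.7 with GSK343 and 7013 in the control on its bright probe and a difference of -0.72, and -0.66 on its dim probe. SLC2A3, the glucose transporter GLUT3, had 12636 with GSK343 and 19449 in the control on one probe and 9249 with GSK343 and 24666 in the control on the other, with differences of -0.62 and -1.42.

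CCL5, a chemokine that draws T cells, had 706.2 with GSK343 and 2889 in the control on one probe and 1020.5 with GSK343 and 1616 in the control on the other, so that its differences of -2.03 and -0.66 share a direction but not a size. RARG, a nuclear retinoic acid receptor, likewise had -0.81 on a bright probe and -1.67 on a dim one. SH3PXD2A, a scaffold of invasive podosomes, had -0.75 and -0.79, and LRRC61, which has the brightest probe of the lower genes apart from SLC2A3, had 9971 with GSK343 and 16450 in the control and a difference of -0.72, and -0.97 on its second probe. AKR1C2, an aldo-keto reductase of steroid metabolism, had -0.68 and -0.64 on dim probes. AKR1C1, a near-identical copy, had 0.11, and how far probes of one read the other was not tested. MBOAT1, NHLH2, CD164L2 and BEST1 completed the 14, with larger differences of -1.72, -1.43, -1.10 and -0.79 on their more strongly lower probes.

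In A549, every probe of 5 of these 18 genes had the same direction as in HepG2, and every probe of 6, all lower in HepG2, had the opposite direction. Over all 1129 genes with every probe past the intensity filter lower in HepG2, every A549 probe was lower for 147 and higher for 443 (39.2%). Over the 831 genes with every such probe higher in HepG2, every A549 probe was higher for 156 (18.8%) and lower for 299 (36%). Opposite directions were thus more frequent than the same direction on both sides. The share of all 3843 genes with every A549 probe higher, or every one lower, was not taken. Over all genes the median difference was -0.02 in HepG2 and 0.04 in A549. The brightest 10% of probes had medians of 0.08 in HepG2 and -0.12 in A549. How far such array-wide trends enter these counts was not tested. By the count of agreeing genes, A549 had 36 higher and 6 lower. Among the 18 genes, the 5 with the same direction were LPIN1 (0.86 and 0.85 in A549), FAM163B, NHLH2, LRRC61 and CD164L2. Of the 6 with the opposite direction, MDN1 and AKR1C2 were past 1.5-fold in both lines. No difference between the lines was tested.

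**Figure D1:**
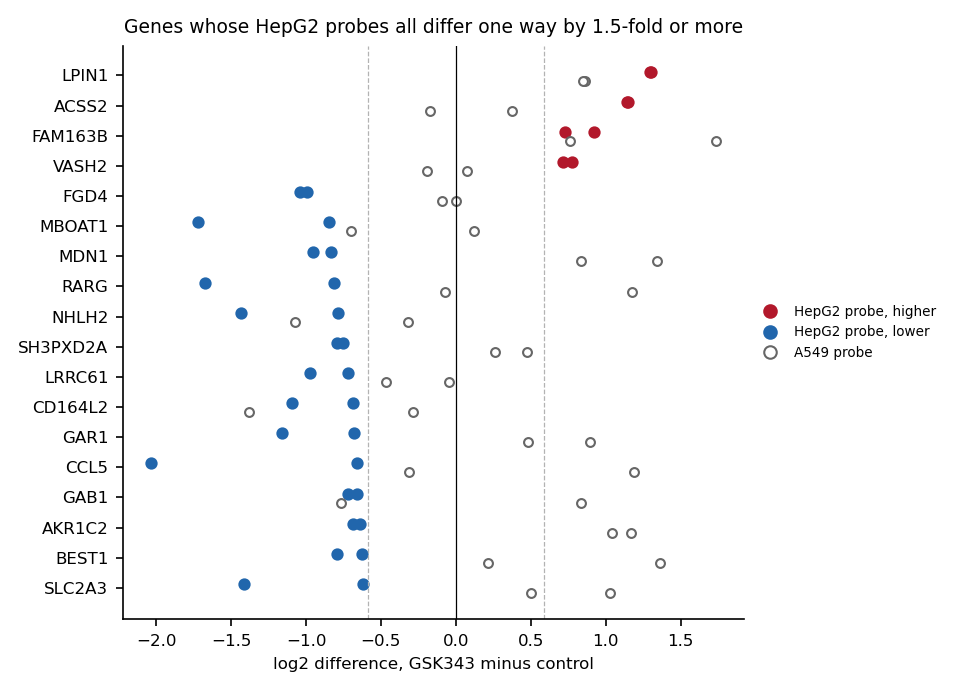
Log2 difference (GSK343 minus control) of each probe for the 18 genes whose HepG2 probes agreed in direction and were all at least 1.5-fold; filled points are HepG2 probes, open points the same probes in A549, and dashed lines mark 1.5-fold. LPIN1 and ACSS2 sit furthest to the right on both HepG2 probes, and the A549 points of MDN1 and AKR1C2 lie on the other side of 0.

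Agreement of this kind was rare on these arrays. Over 7404 pairs of probes from 5408 genes, the differences of both probes had the same sign in 3976 pairs (53.7%), with r = 0.0408 and rho = 0.0818 across pairs, which share arrays and genes and are not independent replicates. The spread between probes of a gene (SD of the difference between probes over the square root of 2) was 0.39 log2 units, and 0.26 in the brightest 25% of pairs, where 55.1% had the same sign. Probes of a gene repeat the spot and not the culture, so that their agreement cannot stand in for a second array.

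The brighter probe of a gene also tended to give the higher difference in HepG2. Over 3518 pairs at least 4-fold apart in intensity, ordered by the A549 arrays, the median of brighter minus dimmer was 0.16 log2 units, and the brighter probe was the higher one in 66.0% of pairs. In A549, ordered by the HepG2 arrays, the median was -0.11 over 3469 pairs. The part of this brightness pattern in the list values below was not tested. Each list is also given by the brightest probe of each gene, which does not remove the pattern. The mean and the brightest probe can differ only for genes with 2 or more probes. These were 6 of 18 genes in cholesterol synthesis and 6 of 18 WNT targets. They were 7 of 20 YAP and serum response genes and 8 of 29 immediate-early genes.

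**Figure D2:**
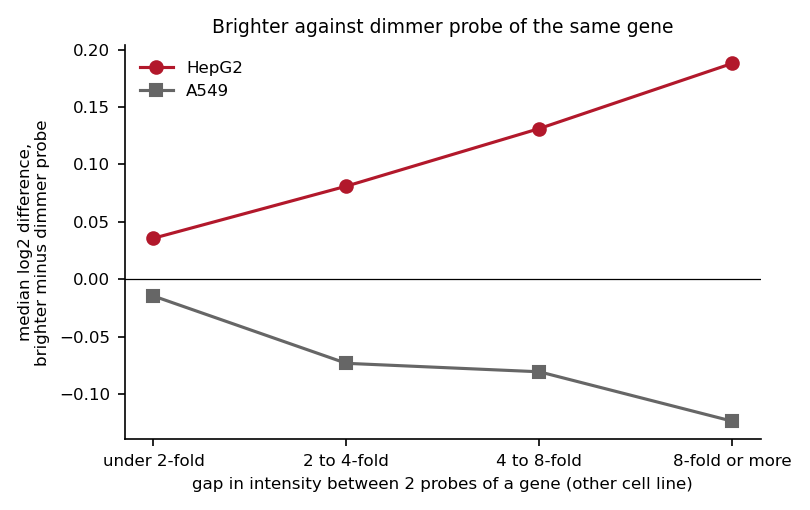
Median log2 difference of the brighter minus the dimmer probe of the same gene (y axis) by their gap in intensity on the arrays of the other cell line (x axis), for HepG2 (circles) and A549 (squares). The HepG2 medians climb with the gap, with 0.04 under 2-fold and 0.19 at 8-fold or more, while the A549 medians go to -0.12.

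Over all single probes, 870 were at least 1.5-fold higher with GSK343 (2.75%) and 2215 were at least 1.5-fold lower (7.0%). With each gene as the mean of its probes, 366 of 18322 were higher (2.0%) and 1003 lower (5.47%). This split depended on scaling. Higher genes were 26.7% of those past the size without scaling, 29.5% after median centring and 43.3% after quantile normalization (568 higher and 745 lower), and the corresponding shares of probes were 28.2%, 30.2% and 42.2% (1245 higher and 1703 lower). The median difference over all genes was -0.02 log2 units. Median intensity was 449.8 on the GSK343 array and 475.8 on the control array.

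The arrays carried the labelled cell line. All 12 hepatocyte markers were at least 2-fold higher on the HepG2 control array than on the A549 control array, and 10 of 12 markers of the lung line were at least 2-fold lower. Summed over the hepatocyte markers, intensity was 2.24e+06 with GSK343 and 2.16e+06 in the control. Summed markers of blood and immune cells were 26726 with GSK343 and 25316 in the control, those of fibroblasts and endothelium 32751 with GSK343 and 26906 in the control, and no such probe was at 0. In bulk RNA of this kind, fewer cells of a type and less RNA per cell cannot be told apart.

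Genes of cholesterol synthesis were higher with GSK343 along nearly the whole route. Of 18 measured genes of 20 listed, 17 were above 0, 6 were at least 1.5-fold higher against 2.0% of all genes, and none was 1.5-fold lower. The median was 0.44 log2 units by the mean of probes and 0.46 by the brightest probe, beside -0.02 and 0.00 for all genes. HMGCS1, which makes HMG-CoA at the entry to the mevalonate route, had 69000.2 with GSK343 and 29819 in the control, a difference of 1.21. Its promoter stretch at chr5:43313484-43313591 (minus strand, GRCh38.p14, RefSeq), 179 to 72 bases before the start site, holds 2 CCAAT boxes, in capitals as ATTGG.
HMGCS1: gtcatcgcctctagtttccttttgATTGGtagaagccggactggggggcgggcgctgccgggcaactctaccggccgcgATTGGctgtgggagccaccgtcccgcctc

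MSMO1, the C-4 methyl sterol oxidase, had 54740.4 with GSK343 and 28161 in the control on the brighter probe and 4253 with GSK343 and 2956 in the control on the dimmer one, with differences of 0.96 and 0.52. Its stretch at chr4:165327460-165327663 (plus strand, GRCh38.p14, RefSeq), 209 to 6 bases before the start site, holds 4 such boxes.
MSMO1: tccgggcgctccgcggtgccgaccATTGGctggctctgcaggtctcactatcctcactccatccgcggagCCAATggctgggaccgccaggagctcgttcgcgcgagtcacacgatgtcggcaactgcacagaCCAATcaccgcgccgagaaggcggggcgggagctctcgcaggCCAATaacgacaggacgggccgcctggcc

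CCAAT stood on either strand within 250 bases before the start site in 13 of 15 cholesterol synthesis genes with a promoter in the table (86.7%), in 10 of 17 fatty acid synthesis genes, in 40.5% of the genes measured here and in 37.0% of all 27305 genes. The box was not particular to lipid genes, since it stood in 90.5% of the ER chaperone genes, 88.2% of the mitosis genes and 85.0% of the HOX genes, whose list medians were 0.00, -0.10 and -0.06. A sterol response element spelled TCACNCCAC was in none of the 15 and in 1.09% of all genes. These are matches of letters in a window and say nothing of binding.

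Other steps of the route had differences of similar size. DHCR7, which performs the last reduction to cholesterol, had 49381 with GSK343 and 27336 in the control, a difference of 0.85. FDFT1, squalene synthase, had 129182 with GSK343 and 73493 in the control, a difference of 0.81. IDI1, the isopentenyl diphosphate isomerase, had 29173 with GSK343 and 19935 in the control on one probe and 27760 with GSK343 and 16560 in the control on the other, with differences of 0.55 and 0.75. These genes were all bright on both arrays, well above the array median.

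NSDHL, a sterol dehydrogenase of C-4 demethylation, had a difference of 0.61, and TM7SF2, SQLE, CYP51A1 and SC5DL, which act between squalene and cholesterol, had 0.53, 0.46, 0.46 and 0.43. FDPS, farnesyl diphosphate synthase, was the exception, with 4329 with GSK343 and 6021 in the control on one probe and 4147 with GSK343 and 4274 in the control on the other, a mean difference of -0.26. ACAT2 had probes of both signs, 0.31 and -0.11. MMAB, an enzyme of vitamin B12 metabolism whose gene shares a promoter region with MVK, had 0.64 and 0.43, beside 0.24 for MVK. A549 had a median of 0.33 for the route, and the genes were not the same size there: HMGCS1 and DHCR7 had 0.14 and 0.06 in A549, while the IDI1 probes had 1.07 and 0.89 and FDPS was above 0 on both probes.

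The genes that sense, import and export cholesterol were mixed. Over 17 measured genes the median was 0.07 (0.11 by the brightest probe), and 1 was at least 1.5-fold higher. STARD4, a sterol carrier protein, had 1433 with GSK343 and 955.8 in the control, a difference of 0.58. SREBF2, which encodes SREBP-2, had 796.2 with GSK343 and 1099 in the control, a difference of -0.47, and the SREBF1 probes had 0.16 and 0.12. INSIG1, the ER anchor of the SREBP system, had 0.92 and -0.14 on dim probes of at most 136.5 units, and the only gene past 1.5-fold, the exporter gene ABCG1, had a dim probe with 30.0 with GSK343 and 13.6 in the control.

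Fatty acid synthesis was mixed, with 11 of 18 genes above 0 and 7 below by the mean of probes. By the brightest probe, 13 were above 0 and 5 below. FASN, fatty acid synthase, had 127593 with GSK343 and 84140.2 in the control, a difference of 0.60. SCD, the stearoyl-CoA desaturase, had 0.45, and FADS1, a desaturase of polyunsaturated fatty acids, had 0.43. FADS2, the partner desaturase of FADS1, had -0.50, and ACSL5, THRSP and ELOVL1 had -0.38, -0.37 and -0.27. ACLY, which makes cytosolic acetyl-CoA from citrate, had 84713 with GSK343 and 59335 in the control on a bright probe, a difference of 0.51, and -0.63 on a probe about an order of magnitude dimmer. ACACA, acetyl-CoA carboxylase, split in the same manner, with 0.50 on a bright probe and -0.64 on a dim one. The median of the 18 genes was 0.15 by the mean of probes and 0.27 by the brightest probe, with 2 genes at least 1.5-fold higher (ACSS2 and FASN, 11.1% against 2.0% of all genes) and none lower.

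Beyond LPIN1, genes of the triglyceride and phospholipid list, which also holds the lipase genes LIPG, LIPE and PNPLA2, lay on both sides of 0. Over 20 genes the median was -0.07 by the mean of probes and turned to 0.04 by the brightest probe. At least 1.5-fold higher were 2 genes, LPIN1 and LIPG (10%, against 2.0% of all genes), and none was lower. LIPG, endothelial lipase, had 1401 with GSK343 and 566.8 in the control, a difference of 1.31. CHKA and PCYT1A, which make phosphatidylcholine, had -0.57 and -0.49, and the LPIN1 relatives LPIN2 and LPIN3 had -0.31 and 0.03. PPARA, the fatty acid sensor that drives fatty acid oxidation, was above 0 on all 3 probes, with 0.50, 0.20 and 0.53. The oxidation and ketone body genes as a list had a median of -0.06, and PDK4, ANGPTL4 and CPT1A, which are induced by PPARA in liver, had -0.20, -0.05 and -0.08. ACSM4, a mitochondrial acyl-CoA synthetase, had 2145.5 with GSK343 and 749.8 in the control on its only probe.

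**Figure D3:**
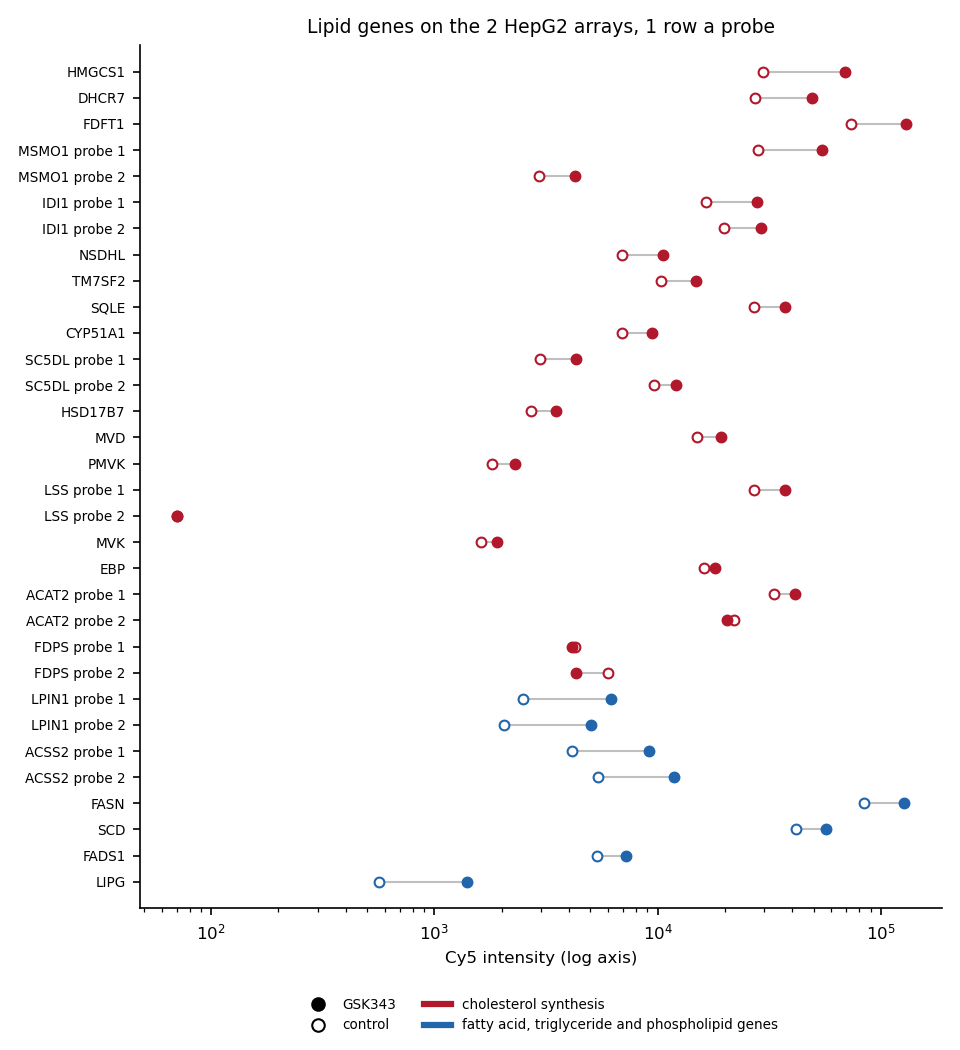
Intensity of each probe (x axis, log scale) of cholesterol synthesis genes (red) and of other lipid genes (blue) on the HepG2 GSK343 array (filled) and the HepG2 control array (open), with 1 row a probe. The other lipid genes shown were chosen for their high values, and lipid genes that were lower are given in the text. GSK343 lies to the right of control for every row but the second ACAT2 probe and the FDPS probes, with the second LSS probe, at 70.3 with GSK343 and 70.1 in the control, nearly level.

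HERPUD1, DNAJB9 and SDF2L1, which serve folding and degradation of proteins in the ER, were higher with GSK343, while the ER chaperone list as a whole had a median of 0.00. HERPUD1, a membrane protein of ER-associated degradation, had 90422 with GSK343 and 43620.4 in the control, a difference of 1.05. DNAJB9, a co-chaperone of BiP, had 5267 with GSK343 and 3002 in the control, a difference of 0.81, and SDF2L1 had 33836 with GSK343 and 22597 in the control, a difference of 0.58. HSPA5, which encodes BiP, had 0.27. CALR, HYOU1 and XBP1 had -0.48, -0.40 and -0.34, so that members of this list lay on both sides. Its median over 21 genes was 0.00 by either choice of probe, with 2 genes at least 1.5-fold higher (9.52%, against 2.0% of all genes) and none lower.

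The ER stress response element, in which CCACG follows CCAAT after 9 bases of any kind, was within 250 bases before the start in 8 of 21 genes (38.1%), among them HSPA5, CALR and XBP1, against 0.0916% of all genes, and in none of HERPUD1, DNAJB9 and SDF2L1. Only this 1 spelling of the element was searched, so other forms of it were not looked for. HERPUD1 held a CCAAT box. It also held TGATGNAA, the core of a C/EBP-ATF response element that ATF4 and CHOP bind, on the opposite strand. TGATGNAA was on either strand in 31.6% of the integrated stress response genes and 3.89% of all genes. The stretch lies at chr16:56931942-56931997 (plus strand, GRCh38.p14, RefSeq), 200 to 145 bases before the start site, with the match in capitals.
HERPUD1: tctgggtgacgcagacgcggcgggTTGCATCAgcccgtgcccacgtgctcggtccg

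The integrated stress response, in which ATF4 is translated when eIF2α is phosphorylated, had members on both sides. DDIT3, which encodes the transcription factor CHOP, had 10084 with GSK343 and 6075 in the control, a difference of 0.73. NUPR1, SESN2 and ASNS had 0.56, 0.49 and 0.48. PPP1R15A, the GADD34 subunit that reverses the pathway, had 1609 with GSK343 and 2829 in the control, a difference of -0.81, and the secreted factor GDF15 had 30618 with GSK343 and 47835 in the control, a difference of -0.64. ATF4 itself had 0.42 on its very bright probe and -0.78 on a dim one, and the TRIB3 probes had 0.43 and -0.27. The median of 21 genes was 0.08 by the mean of probes and 0.20 by the brightest probe, beside 0.42 and 0.25 in A549. The amino acid transport, synthesis and tRNA charging genes that ATF4 serves had a median of -0.04, which turned to 0.08 by the brightest probe, and 1 of 29, SLC3A2 at -0.62, was past 1.5-fold.

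Genes of serum response and of the YAP and TAZ coactivators were lower with GSK343. Of 20 measured genes, 17 were below 0 and 3 were at least 1.5-fold lower, against 5.47% of all genes, and the median was -0.23 (-0.17 by the brightest probe). CYR61 and CTGF, secreted matricellular proteins and standard YAP targets, had 1912 with GSK343 and 3872 in the control, and 21208 with GSK343 and 36063 in the control, with differences of -1.02 and -0.77. THBS1, thrombospondin 1, had 3339 with GSK343 and 6669 in the control, a difference of -0.998. All 3 were also below 0 in A549, at -0.47, -0.94 and -0.06.

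CTGF, named CCN2 in RefSeq, is shown with the letters of the TEAD sites through which YAP acts. GGAATG occurs 3 times in its stretch at chr6:131951438-131951565 (minus strand, GRCh38.p14, RefSeq), 193 to 66 bases before the start site.
CTGF: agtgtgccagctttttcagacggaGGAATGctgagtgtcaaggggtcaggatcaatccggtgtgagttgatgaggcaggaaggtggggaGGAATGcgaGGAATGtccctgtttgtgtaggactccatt
GGAATG was present on either strand in 8 of 16 genes of this list with a promoter in the table, one of them YAP1 itself, in 40.0% of the HOX genes and in 14.3% of all genes. CYR61 had no promoter in the table.

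SRF, the serum response factor gene, had 12823 with GSK343 and 19082 in the control, a difference of -0.57. SRF binds the CArG box, and its own promoter holds a pair of them in the last 54 bases before the start, at chr6:43171215-43171268 (plus strand, GRCh38.p14, RefSeq), in capitals.
SRF: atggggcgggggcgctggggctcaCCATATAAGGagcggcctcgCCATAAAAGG

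AJUBA, a LIM protein of the Hippo pathway, had 13348 with GSK343 and 22893 in the control on one probe, a difference of -0.78, and -0.25 on the other. ANKRD1, a muscle ankyrin repeat protein and YAP target, had 611.1 with GSK343 and 870.1 in the control, a difference of -0.51. The coactivator genes YAP1 and WWTR1 had 0.14 and 0.07, and the SRF targets VCL, TPM1 and FLNA had -0.13, -0.21 and 0.08, all within the spread between probes of a gene.

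Immediate-early genes and feedback genes of the MAPK pathway leaned the same way, with 23 of 29 below 0, 3 at least 1.5-fold lower, 1 higher (10.3% and 3.45%, against 5.47% and 2.0% of all genes) and a median of -0.20 (-0.25 by the brightest probe). RHOB, a small GTPase induced by stress and growth factors, had 6681 with GSK343 and 14287 in the control on one probe and 25994 with GSK343 and 37958 in the control on the other, with differences of -1.10 and -0.55. NR4A1, an orphan nuclear receptor, had 236.8 with GSK343 and 470.6 in the control, and KLF10, a TGF-β inducible repressor, had 5996 with GSK343 and 10715 in the control, with differences of -0.99 and -0.84. KLF6 was below 0 on all 4 of its probes, at -0.71, -0.34, -0.21 and -0.20, and SPRY4, a feedback inhibitor of receptor tyrosine kinases, had -0.38 and -0.37.

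The phosphatase genes DUSP1, DUSP5 and DUSP6, which switch off MAP kinases, had -0.52, -0.50 and -0.41, and FOSL1 and MYC had -0.56 and -0.35. EGR1, FOS and JUN, the best known members, had 0.00, -0.16 and -0.25. EGR3 was the exception in size, with 369.1 with GSK343 and 203.9 in the control, a difference of 0.86. In A549 the list had a median of 0.17, with KLF6 above 0 on all 4 probes (0.29 to 1.25) and NR4A1 at 1.23.

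WNT and β-catenin targets were lower in 15 of 18 genes, with a median of -0.26 (-0.28 by the brightest probe) and 4 genes at least 1.5-fold lower (22.2%, against 5.47% of all genes). HepG2 cells carry an activating β-catenin mutation, so that these genes are normally on in the line. DKK1, a secreted WNT inhibitor, had 1785 with GSK343 and 2753.5 in the control, a difference of -0.63. LGR5, an R-spondin receptor, had 671.1 with GSK343 and 1033 in the control, a difference of -0.62, and AXIN2, the scaffold of the destruction complex that is a standard readout of the pathway, had 1144 with GSK343 and 1733 in the control, a difference of -0.60. TNFRSF19 had -0.87 and -0.31 and NKD1, a feedback inhibitor, -0.42 and -0.29, so that both probes of each were lower. LEF1 and the liver target GLUL had -0.01 and 0.07, while CTNNB1, which encodes β-catenin, and CCND1 had 0.27 and 0.33 on bright probes.

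In the TGF-β and BMP list, 16 of 20 genes were below 0 by the mean of probes and 11 by the brightest probe, and the median of -0.30 shrank to -0.08. At least 1.5-fold lower was 1 gene (5.0%), near the 5.47% of all genes. BMP4, a ligand, had 26034 with GSK343 and 39326 in the control, a difference of -0.60. ID3, a direct BMP target that blocks basic helix-loop-helix factors, had 36404 with GSK343 and 56544 in the control on a bright probe, a difference of -0.64, and -0.35 on a dim one, and ID1 had -0.32. TGFBR2, the type II receptor, had -0.70 and -0.27. Among the SMAD genes that carry these signals, SMAD3 had -0.38 and SMAD7, an inhibitor, -0.26, while SMAD2 and SMAD4 had 0.01 and 0.11.

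**Figure D4:**
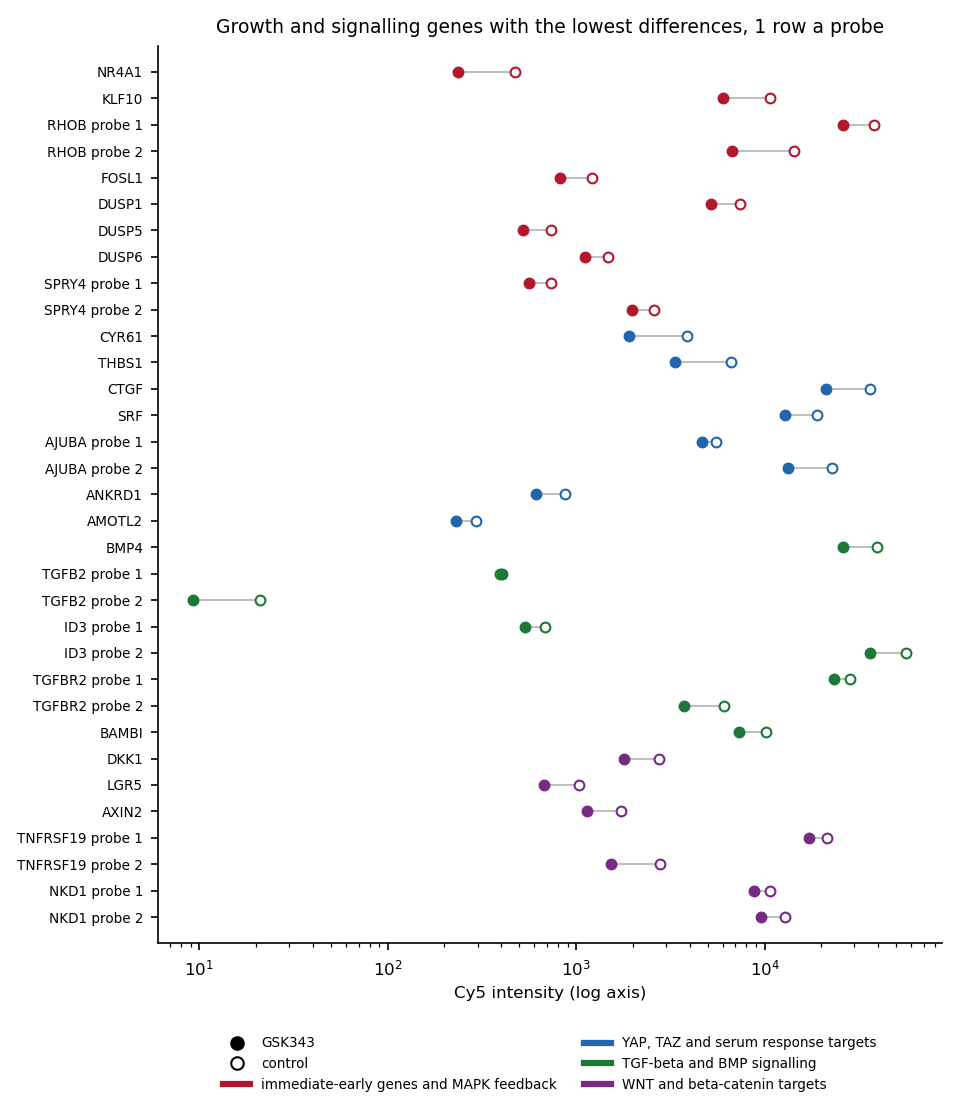
Intensity of each probe (x axis, log scale) on the HepG2 GSK343 array (filled) and the HepG2 control array (open) for the genes with the lowest differences of the immediate-early, YAP and serum response, TGF-β and BMP, and WNT lists, 1 row a probe. The genes were chosen for low values, and GSK343 lies left of control on nearly all rows. The widest gap among bright probes is that of the second RHOB probe, at 6681 with GSK343 and 14287 in the control.

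Other signalling lists had smaller median shifts by the mean of probes, though single genes in them did not. The receptors and adaptors of growth factors had a median of -0.14 over 24 genes, with EGFR, MET and ERBB3 at -0.36, -0.36 and -0.48. The only one of these 24 genes past 1.5-fold was GRB10, whose spot was near 0 on the GSK343 array, so that its size is unreliable. The adaptor gene GAB1, given above among the agreeing genes, was not in this list. Of 24 NF-κB targets and cytokines 3 were at least 1.5-fold lower (12.5%, against 5.47% of all genes), namely CCL5, TRAF1 at -1.34 and the TNF receptor gene TNFRSF1A at -0.72, and the list median was -0.08.

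CDKN1A, the p21 inhibitor of cyclin-dependent kinases, had 12836 with GSK343 and 17126 in the control on one probe and 4717 with GSK343 and 7642 in the control on the other, with differences of -0.42 and -0.70, where A549 had 1.10 and 1.43. Of the 17 p53 targets measured, CDKN1A included, 12 were above 0, and the list median was 0.13. TP53INP1, a p53 target that also acts in autophagy, was the only member past 1.5-fold, with 10963 with GSK343 and 6055 in the control, a difference of 0.86.

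Autophagy and lysosome genes held no member past 1.5-fold in either direction. The 28 autophagy genes had a median of 0.09, with NBR1, a cargo receptor, at 0.44 and ATG16L1 at -0.56, and the cargo receptor SQSTM1 and the ubiquitin-like MAP1LC3B at 0.22 and 0.06. Among 30 lysosomal genes with a median of 0.02, the Rag GTPase genes RRAGC and RRAGD, which tether mTORC1 to the lysosome, were the highest at 0.55 and 0.56, and RRAGD was above 0 on both of its dim probes.

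The genes of PRC2 itself were close to the control. EZH2 had 9059 with GSK343 and 10421 in the control, a difference of -0.20, and SUZ12 had 14530 with GSK343 and 12819 in the control, a difference of 0.18. The EED probes had 0.64 where dim and 0.01 where bright. None of the 11 subunit genes was past 1.5-fold, and the largest was JARID2, a cofactor that recruits the complex, at 0.37. Of 38 HOX genes, classic targets of PRC2, 1 was at least 1.5-fold higher (HOXC10 at 0.75) and 3 lower (HOXC6, HOXD9 and HOXB9 at -1.54, -1.17 and -0.75), which is 2.63% and 7.89% against 2.0% and 5.47% of all genes, with a median of -0.06.

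Genes of liver function had medians close to that of all genes. These were 0.05 for plasma carrier and acute-phase proteins, 0.12 for apolipoproteins and -0.09 for complement and coagulation, where PROCR, the endothelial protein C receptor gene, had 537.7 with GSK343 and 1327 in the control and was the only member of the 3 lists past 1.5-fold. Liver-enriched transcription factors had a median of 0.03. FOXA2, a pioneer factor of hepatocytes, had 27095 with GSK343 and 18131 in the control, a difference of 0.58, and PROX1 had 0.81 and 0.32. ALB and AFP had 0.03 and 0.17.

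Mitosis and DNA replication genes held no member past 1.5-fold, with medians of -0.10 and -0.02. Cytosolic ribosomal proteins had a median of 0.15 with 34 of 42 genes above 0, and respiratory chain genes had 0.11 with 23 of 30 above 0. Both lists are bright, and the brightest 10% of all probes had a median of 0.08, against -0.10 in the dimmest 10%. Proteasome subunits and heat shock proteins had medians of 0.00 and 0.08.

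**Figure D5:**
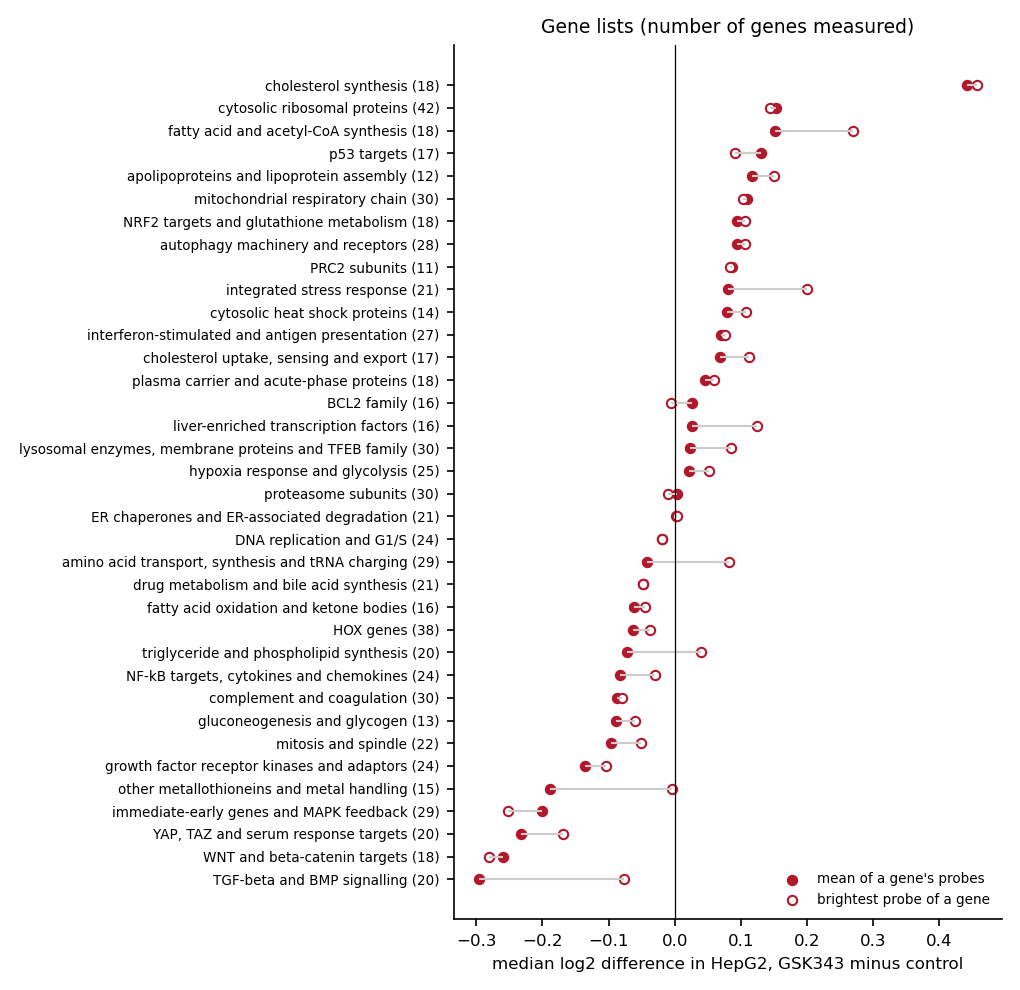
Median log2 difference in HepG2 (GSK343 minus control, x axis) of each gene list, with the number of genes measured in parentheses, by the mean of the probes of a gene (filled) and by its brightest probe (open). Cholesterol synthesis stands alone at the top with 0.44 and 0.46, and the WNT, YAP, immediate-early and TGF-β lists lie lowest, where the TGF-β list moves to -0.08 by the brightest probe.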

How the data were processed

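Single-colour Cy5 intensity, processed by the authors and on a linear scale, was deposited for 4 Human OneArray Plus arrays (HepG2 and A549, GSK343 and control, 1 array each). The background correction and normalization are not given in the sources used here, so a brightness trend left by them would remain in the differences. Of 31741 probes, 24740 name 1 gene, 977 several and 6024 none. Differences are log2(GSK343) minus log2(control), without scaling, over probes above 0 on both arrays, which left out 107 probes. Genes are the mean of their single-gene probes. A size of 1.5-fold was counted, and no test was made, since the number of arrays limits the precision. Dim probes (mean intensity under 98.9) were left out of the count of agreeing genes. The alternatives were median centring, quantile normalization, an offset of 50, no intensity filter or the median as filter, a size of 2-fold, and the brightest probe. Promoter matches used the 250 bases before each start in RefSeq (GRCh38.p14). The script for agreeing genes was tested on simulated data.

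The genes and the 41 gene lists were chosen with earlier results of these data known. Named genes were up to 25 agreeing genes each way, up to 8 of each list (genes with 2 or more probes first, then by size), list members of the opposite sign, EZH2, SUZ12 and EED, and the 10 genes with the widest disagreement between probes. Other list members are named for their known role, with their values in view. Calculations ran in Python 3.11.15 with pandas 2.3.3, numpy 2.4.6 and scipy 1.17.1, and matplotlib 3.10.9 drew the plots.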

Additional observations from a re-analysis of the deposited data

Results flagged for a closer look

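MDN1 had a mean difference of -0.90 log2 units in HepG2, with every probe at least 1.5-fold lower with GSK343, and every probe at least 1.5-fold higher in A549 (1.34 and 0.84). AKR1C2 had -0.66 in HepG2 and, on its 2 probes in A549, 1.04 and 1.16. They are listed because the lines moved in opposite directions, and the difference between the lines was not tested. Over pairs of probes of the same gene at least 4-fold apart in intensity, the brighter minus the dimmer probe had a median of 0.16 in HepG2 and -0.11 in A549, and this difference between the lines was not tested either.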

How the results depend on the processing

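Median centring moved no count or list median beyond 1.5 times or beyond the spread used for lists. An offset of 50 gave 395 probes higher and 1207 lower, and 172 genes higher and 520 lower. Probes at or above the median intensity gave 257 probes higher and 670 lower, 164 genes higher and 347 lower, 6 agreeing genes lower, a spread of 0.29, and list medians of 0.25 (fatty acid synthesis), -0.31 (immediate-early) and -0.18 (TGF-β and BMP). A size of 2-fold gave 205 probes higher and 802 lower, 84 genes higher and 342 lower, and 2 agreeing genes higher (LPIN1 and ACSS2) and 0 lower. Without an intensity filter 7 agreeing genes were higher and 27 lower, and at 1.25-fold, chosen after the values were seen, 37 and 90. Quantile normalization gave 568 genes higher. The brightest probe gave medians of 0.27 (fatty acid synthesis), 0.040 (triglyceride and phospholipid), 0.20 (integrated stress response) and -0.076 (TGF-β and BMP). These settings change which probes or sizes count, and the offset and quantile normalization change the differences themselves. Beyond that, the cause was not tested. The other 74 values of this kind stayed, and for single genes 174 stayed and 5 moved, those of TNFRSF19, CCL5, SLC2A3 and EED. No paired analysis was possible because each condition had 1 array, and leaving out a replicate was not possible for the same reason. With 1 array a condition there is no error between cultures, and dim probes add noise, with a spread between probes of 0.52 in the dimmest 25% of pairs.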

Other observations

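The 10 genes whose probes at or above the median intensity disagreed most were VPS13C, ADM2, KCNMB4, LRTOMT, LMX1B, CWF19L1, ZNF621, HYDIN, ATF7 and PHF20L1, with ranges of 1.60 to 3.73 log2 units. The widest was VPS13C, with -0.15 and 3.58, and LRTOMT had -0.19 and 1.96. One ADM2 probe had a difference of -2.12 log2 units in HepG2 and another 0.13, and KCNMB4 had -2.08 and 0.12. In A549 the same ADM2 probes had 0.08 and -0.06, and those of KCNMB4 had -0.75 and 0.19. Which probe reads the transcript was not tested.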
